A study of Mus musculus with 6 samples.

Results

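A set of 8 genes that mark the alpha and delta cells of the islet, other than their hormones, was followed: Irx1, Irx2, Ttr, Gc and Pou3f4 for alpha cells and Hhex, Rbp4 and Ghsr for delta cells. They are 8 of 32854 genes and unnamed transcripts on the array, found by matching RefSeq accessions of probes to these symbols, and the probe with the highest mean processed signal stood for each gene. In the exoNOD group (3 arrays), islet cells of male C57Bl/6N mice were dispersed and kept for 72 h with exosomes, small secreted vesicles, at 50 µg/ml. These came from T lymphocytes, CD4+CD25-, of the diabetes-prone NOD strain. Control cells were islet cells of the same strain and sex kept for the same time with no exosomes added (3 arrays). Total RNA of each culture was labelled with Cy3 and hybridised to a 1-colour Agilent mouse array, and each of the 3 experiments had its own preparations of islets and of exosomes. The label for both groups names the whole islet cell mixture, so fewer cells of a type and less RNA per cell cannot be told apart.

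Alpha cells secrete glucagon, which raises blood glucose, and delta cells secrete somatostatin, which restrains both glucagon and insulin release. Iroquois homeobox factors such as Irx1 and Irx2, and the POU factor Pou3f4, mark the alpha lineage, while the homeobox factor Hhex is needed for delta cells. Ttr (transthyretin) and Rbp4 (retinol binding protein) travel together in plasma as the carrier of retinol and thyroxine, Gc is the plasma carrier of vitamin D, and Ghsr is the receptor through which ghrelin acts on delta cells.

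RefSeq promoters (GRCm38.p6, 250 bases before to 50 after an annotated start) were matched for Irx2, Gc, Pou3f4, Hhex, Rbp4 and Ghsr. Those of 1 transcription factor and 1 secreted carrier of each cell type are shown, chosen with the members' changes known. Whether regulators and carriers changed differently was not tested. The promoters lie at chr13:72628570-72628869 (plus strand) for Irx2, chr5:89457849-89458148 (minus strand) for Gc, chr19:37434591-37434890 (plus strand) for Hhex and chr19:38124762-38125061 (minus strand) for Rbp4. Capitals mark matches on either strand to TATAAA, the GC box GGGCGG, the CCAAT box and GTTAAT, one arm of the HNF1 site; no matches overlapped.
Irx2: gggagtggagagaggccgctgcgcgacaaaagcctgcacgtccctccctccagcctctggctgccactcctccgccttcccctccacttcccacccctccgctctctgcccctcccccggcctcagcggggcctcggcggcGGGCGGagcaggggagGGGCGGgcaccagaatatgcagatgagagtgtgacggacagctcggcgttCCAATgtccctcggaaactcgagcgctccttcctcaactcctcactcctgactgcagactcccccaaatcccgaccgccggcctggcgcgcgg
Gc: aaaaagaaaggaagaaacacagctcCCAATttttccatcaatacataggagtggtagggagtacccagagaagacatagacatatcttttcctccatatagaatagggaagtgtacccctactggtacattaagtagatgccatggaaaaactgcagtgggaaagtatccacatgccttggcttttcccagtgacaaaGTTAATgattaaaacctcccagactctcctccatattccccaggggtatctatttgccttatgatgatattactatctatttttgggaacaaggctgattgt
Hhex: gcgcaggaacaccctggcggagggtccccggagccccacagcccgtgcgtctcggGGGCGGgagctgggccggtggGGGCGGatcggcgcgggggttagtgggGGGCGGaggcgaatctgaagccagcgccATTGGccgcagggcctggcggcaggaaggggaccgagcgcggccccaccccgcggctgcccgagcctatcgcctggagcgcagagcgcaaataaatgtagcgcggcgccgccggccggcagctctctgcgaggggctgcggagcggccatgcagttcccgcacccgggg
Rbp4: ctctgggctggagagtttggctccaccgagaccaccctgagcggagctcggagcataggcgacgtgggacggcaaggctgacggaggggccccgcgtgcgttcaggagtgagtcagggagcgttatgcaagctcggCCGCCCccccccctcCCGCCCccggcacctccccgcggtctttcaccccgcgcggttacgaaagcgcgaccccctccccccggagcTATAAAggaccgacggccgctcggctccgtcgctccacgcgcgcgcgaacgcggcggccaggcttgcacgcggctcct
The Irx2 promoter held 2 GC boxes and 1 CCAAT box, and its GC content was 69.0% with 25 CpG dinucleotides. That of Hhex held 3 GC boxes and 1 CCAAT box, with a GC content of 75.7% and 37 CpG dinucleotides. The Gc promoter had a GC content of 40.3% and 0 CpG dinucleotides, which 5.43% of 32851 promoters share. It held GTTAAT at -52 to -47 from the start and 1 CCAAT box. For Rbp4 the shown start had TATAAA at -28 to -23, 2 GC boxes and 40 CpG dinucleotides; another annotated start of this gene had 5 CpG dinucleotides and 1 CCAAT box. Over all promoters of this length, 13.6% held TATAAA, 35.7% the GC box, 37.4% the CCAAT box and 7.10% GTTAAT. These matches describe letters, not bound sites.

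Every array held 43020 spots for transcripts, of which between 78.1% and 81.8% were well above background and 0 were saturated. The number of arrays, 3 in each group, limits the precision. Levels are log2 processed signals minus the 75th percentile of the array, and compare arrays for 1 gene, not genes with each other. The cells were islet cells by their hormone transcripts, with levels of 8.58 ± 0.0068 for the glucagon gene Gcg in exoNOD cells and 8.68 ± 0.038 in control cells (SD, n = 3 each) and 6.58 ± 0.18 in exoNOD and 6.79 ± 0.22 in control cells for the somatostatin gene Sst. By their scan times the control arrays and exoNOD replicate 1 were scanned together, and exoNOD replicates 2 and 3 in another run. The first principal component, with 49.8% of the variance, placed the exoNOD arrays at -1.59, 38.3 and 44.2 and the control arrays at -39.7, -34.2 and -7.04 (replicates 1, 2 and 3).

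Setting exoNOD beside control cells compares islet cell transcripts with and without added T lymphocyte exosomes, here those of alpha and delta cell identity. No group received other exosomes, so these exosomes and added vesicles of any source cannot be told apart. The alpha cell factors Irx1 and Irx2 and the delta cell factor Hhex differed by less than 0.1 on the log2 scale between the groups; after median scaling, which lowered the change of all genes, they differed by -0.126, -0.168 and -0.209. The carriers Ttr and Rbp4 were lower in exoNOD cells (0.820-fold and 0.809-fold of the control signal), and the carrier Gc was higher (1.16-fold). Of the 8 members, 7 were well above background on all 6 arrays and were tested, and 0 passed in limma (Benjamini-Hochberg adjusted p under 0.05 over 25790 genes), where 0.105% of all genes tested passed. At an unadjusted p under 0.05 limma had 0 of the 7, against 16.6% of all genes. With the replicate number as a block, which takes equal numbers as pairs, 0 of the 7 passed against 8.72% of all genes, and 3 of the 7 had an unadjusted p under 0.05 against 27.8% of all genes. In pairs 2 and 3 the exoNOD array was scanned in another run than its control. Exosomes and scan run cannot be told apart in these pairs, and neither fit, with or without the block, separates them.

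Irx1, the alpha cell Iroquois factor, had levels of 0.063, 0.21 and -0.11 in exoNOD replicates 1, 2 and 3, against 0.16, 0.23 and -0.27 in control replicates 1, 2 and 3. Replicate 2 was highest and replicate 3 lowest in both groups, and the groups overlapped. The log2 change was 0.015 ± 0.16 (SE; 95% interval -0.34 to 0.37; limma adjusted p = 0.968), a ratio of 1.01 with an interval of 0.791 to 1.29.

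Irx2, its close relative, had levels of 0.094, 0.075 and -0.14 in exoNOD cells, against 0.14, 0.12 and -0.15 in control cells. The arrays of equal replicate number lay within 0.05 of each other in all 3 pairs, while the control arrays differed among themselves by 0.29. Its log2 change was -0.028 ± 0.12 (95% interval -0.31 to 0.26; adjusted p = 0.924), and the block narrowed the interval to -0.22 to 0.16. A dimmer Irx2 probe gave a change of -0.087.

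Pou3f4, a POU homeodomain factor that activates the glucagon gene, was not well above background on any of the 6 arrays. Its probe read levels of -6.53, -7.02 and -6.44 in exoNOD cells, against -8.32, -6.38 and -6.35 in control cells. The lowest level of any probe well above background lay between -6.61 and -6.22 over the 6 arrays, so no change is given for it. Its relative Pou3f2 and the Iroquois genes Irx3 and Irx5 were not above background either. Of the 5 relatives tested (Irx4, Irx6, Pou3f1, Pou3f3 and the atypical Iroquois gene Mkx), 0 passed in either fit. Pou3f1 came nearest, with a level of -1.21 ± 0.30 in exoNOD and -1.68 ± 0.045 in control cells (SD, n = 3 each) and a log2 change of 0.47 (limma adjusted p = 0.235, 0.0540 with the block). Irx6 had a log2 change of 0.24, Irx4 of 0.18 and Pou3f3 of 0.19; after quantile normalization Irx4 had -0.0113 and Pou3f3 -0.022. With the block without pair 1, 2 of the 5 rose, where 3447 of all 25790 genes tested rose.

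Ttr had levels of 4.04, 3.94 and 3.64 in exoNOD cells, against 4.23, 4.28 and 3.98 in control cells. Each exoNOD array was below the control array of its number, but exoNOD replicate 1 was above control replicate 3, so the groups overlapped. The log2 change was -0.29 ± 0.13 (95% interval -0.59 to 0.012; adjusted p = 0.312). With the block the interval was -0.48 to -0.098 and the adjusted p 0.0638, and Ttr passed when the block was used on quantile-normalized signals (adjusted p = 0.0472, where 1.52% of all genes fell) or on the authors' deposited values (0.0497, 1.48% of all genes).

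Rbp4, the plasma partner of Ttr, had levels of 3.59, 3.73 and 3.33 in exoNOD cells, against 3.76, 4.12 and 3.69 in control cells. ExoNOD replicate 3 was the lowest array and control replicate 2 the highest, and exoNOD replicate 2 lay between control replicates 3 and 1. Its log2 change was -0.31 ± 0.15 (95% interval -0.64 to 0.027; adjusted p = 0.328, 0.0554 with the block). With the block, Rbp4 passed on quantile-normalized signals (adjusted p = 0.0440), on the authors' deposited values (0.0457), after median scaling (0.0414, where 8.05% of all genes fell) and without pair 1 (0.0377, 2.81% of all genes). Without exoNOD replicate 3 the change was -0.171 for Ttr and -0.196 for Rbp4, and without control replicate 2 that of Rbp4 was -0.174; under normexp background correction they were -0.5 and -0.515. ExoNOD replicate 1 against the controls of its own scan differed by -0.27 for Rbp4 and by -0.12 for Ttr; with 1 exoNOD array, 0 of 25788 genes passed there, so no p is given for this setting.

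Gc was the member with the widest spread between preparations. Its levels were 1.72, 1.42 and 2.25 in exoNOD cells, against 1.53, 1.24 and 1.98 in control cells. Replicate 3 was highest and replicate 2 lowest in both groups, and control arrays spanned 0.74, more than 3 times the mean difference between groups. The log2 change was 0.21 ± 0.24 (95% interval -0.33 to 0.75; adjusted p = 0.665). All 3 pairs differed in 1 direction, by 0.19, 0.18 and 0.27, and the block reduced the SE to 0.078 (adjusted p = 0.113). A dimmer Gc probe gave 0.15. Without exoNOD replicate 3 the change was -0.0135, without control replicate 2 it was 0.0433, and without control replicate 3 or exoNOD replicate 2 it was 0.413 or 0.402. It was 0.134 within the first scan, 0.074 after median scaling and 0.0537 under normexp.

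Hhex, the delta cell factor, had levels of 0.019, 0.36 and 0.18 in exoNOD cells, against 0.071, 0.40 and 0.30 in control cells. Replicate 2 was highest and replicate 1 lowest in both groups. Its log2 change was -0.068 ± 0.13 (95% interval -0.37 to 0.23; adjusted p = 0.816, 0.622 with the block). Within the first scan Hhex differed by -0.236, and without control replicate 2 or exoNOD replicate 1 by 0.00363 or 0.0159.

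Ghsr, the ghrelin receptor of delta cells, had levels of -3.15, -3.02 and -3.20 in exoNOD cells, against -3.26, -2.67 and -3.17 in control cells. Control replicate 2 stood above the other 5 arrays. The log2 change was -0.092 ± 0.18 (95% interval -0.51 to 0.32; adjusted p = 0.820). Its sign turned without control replicate 2 (0.0873) and under normexp background correction (0.528).

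**Figure D1:**
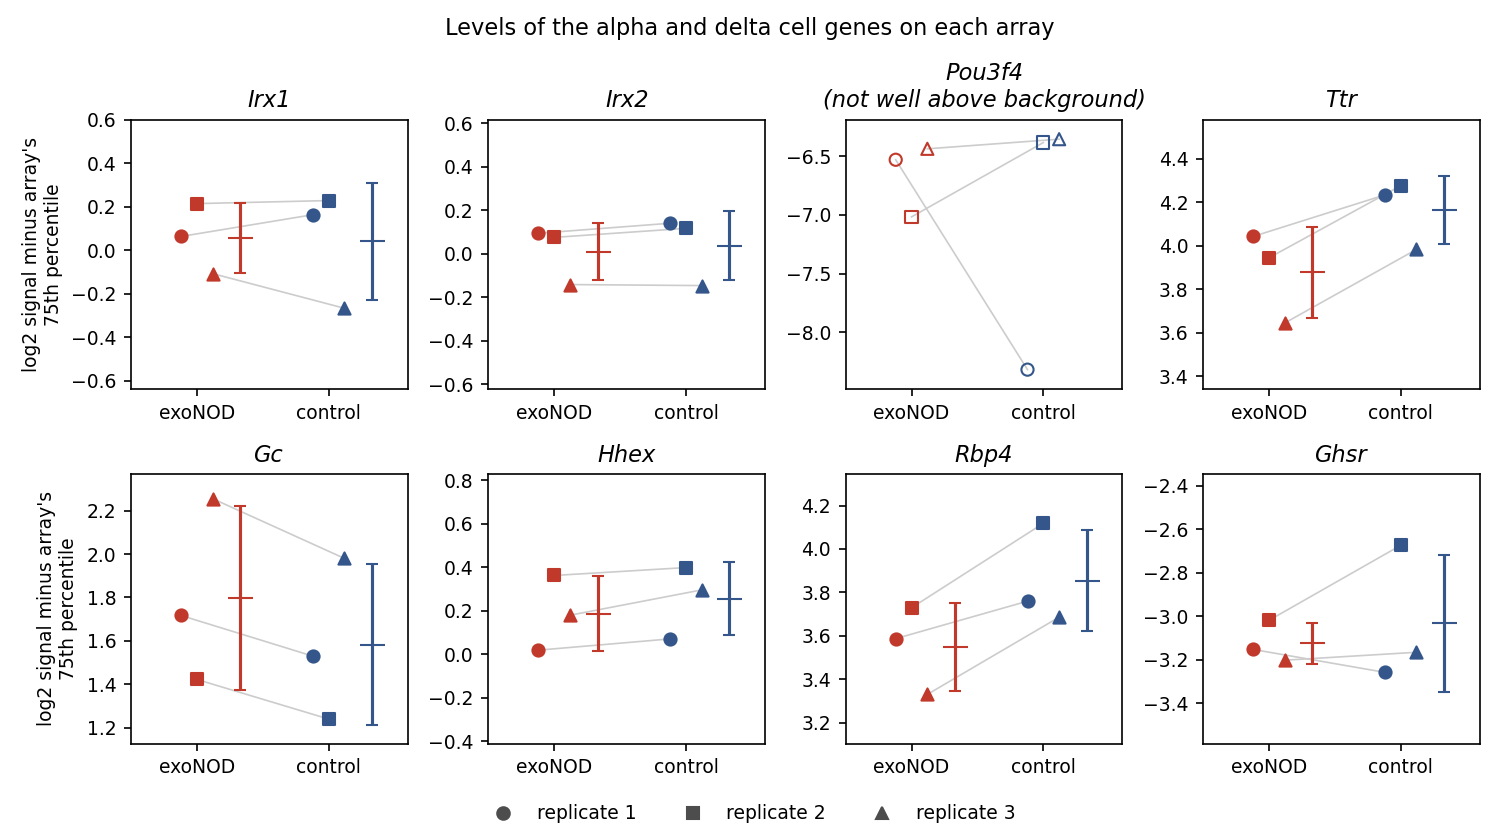
Level of each member on each array, as log2 processed signal minus the 75th percentile of the array (vertical axis), for exoNOD (red) and control (blue) arrays. Symbols give the replicate number, grey lines join equal numbers, bars give mean ± SD, n = 3, and hollow symbols mark Pou3f4, which was not well above background; the groups overlap in all 7 tested members, and the grey lines of Ttr, Rbp4 and Hhex rise towards control while those of Gc fall.

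Groups overlapped in 7 of 7 tested members, so 0 of 7 separated exoNOD from control arrays, where 22.3% of all genes tested did. In 4 of the 7 (Ttr, Gc, Hhex and Rbp4) all 3 pairs differed in 1 direction, as in 51.1% of all genes. The order of replicates 1 to 3 was the same in both groups for 5 of the 7 (Irx1, Irx2, Gc, Hhex and Rbp4), against 29.4% of all genes. For each of the 7 the spread among control arrays, between 0.29 and 0.74 from lowest to highest, was as large as or larger than the difference between groups. Each experiment had its own preparations, so this spread does not measure the error of the difference between arrays of equal number. For Gc the SE was 0.24 without the block and 0.078 with it. The median log2 change was -0.068 over the 7 members and 0.035 over all genes, and 5 of the 7 had a negative change, against 44.6% of all genes.

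**Figure D2:**
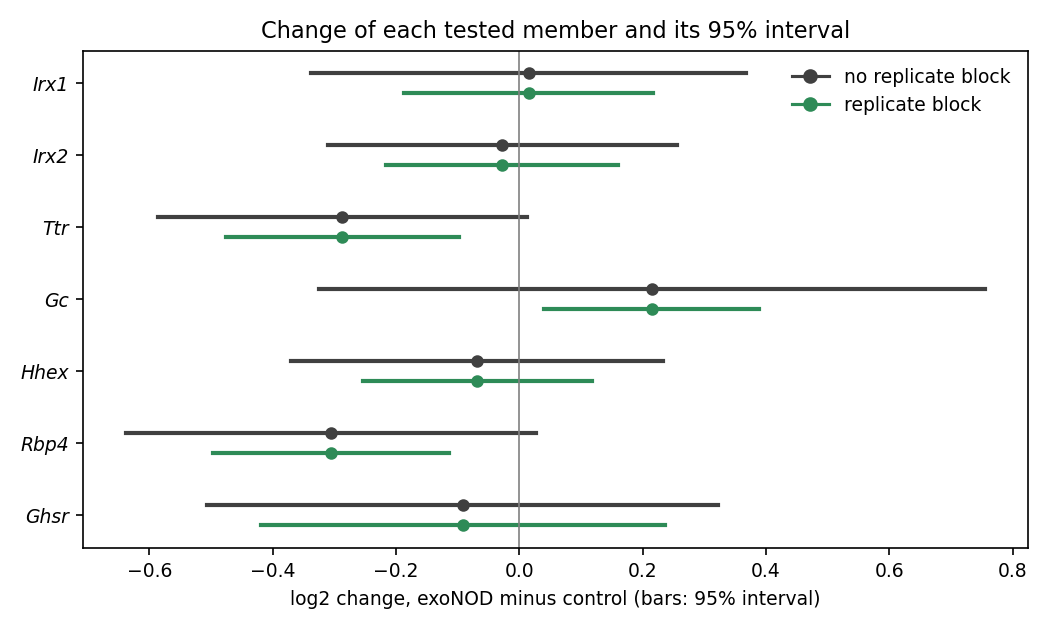
Log2 change, exoNOD minus control, of the 7 tested members (points) with 95% intervals from limma without (grey) and with (green) the replicate block. All grey intervals include 0; with the block those of Ttr, Rbp4 and Gc do not, and no adjusted p is under 0.05.

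**Figure D3:**
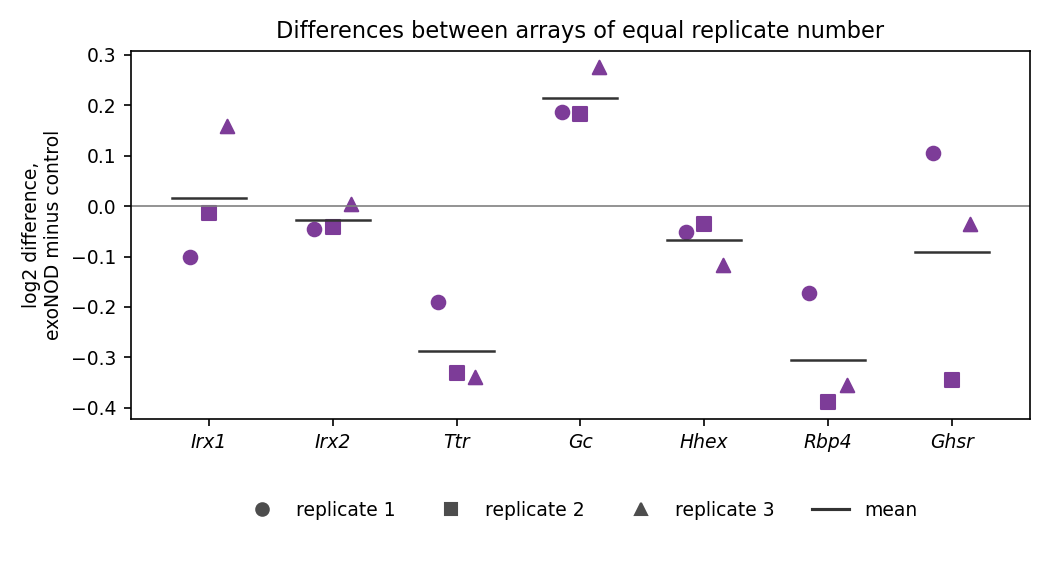
Log2 difference between the exoNOD and control arrays of equal replicate number (symbols) and their mean (line) for each tested member. Ttr and Rbp4 lie between -0.39 and -0.17 in all 3 pairs, Gc between 0.18 and 0.27, and Irx2 within 0.05 of 0.

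Further genes known from alpha cells were read next. Of 9 tested, 0 passed without the block, and with it 1 fell, Slc7a2, a transporter of cationic amino acids (log2 change -0.38, limma adjusted p = 0.374, 0.0493 with the block, where 1.83% of all genes fell). Their median change was -0.20. The amino acid transporter gene Slc38a5 had a log2 change of -0.28 (0.350), most of it from pair 3 (-0.68), and passed with the block after median scaling (0.0214). The protease gene Fap had one of 0.25 (0.492), which was 0.0676 after quantile normalization.

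Of 7 further delta cell genes, 0 passed without the block and 1 fell with it, where 1.83% of all genes fell. This was Casr, the calcium-sensing receptor (log2 change -0.38, limma adjusted p = 0.266, 0.0440 with the block). Sstr3, a somatostatin receptor, had a level of 3.48 ± 0.13 in exoNOD and 3.75 ± 0.040 in control cells (SD, n = 3 each); its groups did not overlap, and its log2 change of -0.27 had an adjusted p of 0.248 (0.0719 with the block). Ptprz1, a receptor phosphatase, had a log2 change of -0.18 (0.2474 under normexp) and the leptin receptor gene Lepr one of 0.13 (-0.0141 after median scaling). Within the first scan Casr differed by -0.0861 and Sstr3 by -0.1246. The calls of Slc7a2 and Casr were lost with the block after quantile normalization (adjusted p = 0.0701 and 0.0738) and in the authors' deposited values (0.0714 and 0.0754).

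The hormones of these cells stood beside their identity genes. Gcg had levels of 8.58, 8.58 and 8.57 in exoNOD cells, against 8.66, 8.65 and 8.72 in control cells, a log2 change of -0.10 (limma adjusted p = 0.578); its groups did not overlap, but the change was 0.0251 after quantile normalization and in the authors' deposited values. Sst had 6.38, 6.73 and 6.62 in exoNOD cells, against 6.54, 6.92 and 6.91 in control cells (-0.21, 0.460), and the pancreatic polypeptide gene Ppy had a log2 change of -0.35 (0.28, 0.0725 with the block). Ppy passed with the block on quantile-normalized signals (0.0242) and on the authors' deposited values (0.0271). In each of these settings 2 hormones fell, where 1.52% and 1.48% of all genes fell. Of the 8 hormone genes 1 fell with the block, the peptide YY gene Pyy (-0.40, adjusted p = 0.244, 0.0445 with the block). Over all genes 1.83% fell with the block. Among 10 factors and enzymes shared by islet endocrine cells, 1 fell with the block, the homeobox factor Nkx2-2 (-0.32, 0.411, 0.0436 with the block), though exoNOD replicate 1 was 0.069 above the controls of its scan. The Nkx2-2 call was lost with the block after quantile normalization (0.0709). The prohormone convertase gene Pcsk2, which cuts proglucagon, had a log2 change of -0.20 and passed with the block on quantile-normalized signals (0.0397) and on the authors' deposited values (0.0417); within the first scan it differed by -0.0192. Rfx6, a factor of endocrine progenitors, had a log2 change of -0.22 and Isl1, a LIM homeobox factor, one of 0.20.

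Beta cell genes were set beside the members as a reference. Of 10, 0 passed without the block and 9 fell with it, against 1.83% of all genes and 0 of the 7 members; whether the lists differ was not tested. Their median log2 change was -0.43. The peptide gene Ucn3, whose product urocortin 3 stimulates delta cells, had levels of 2.06 ± 0.56 in exoNOD and 2.79 ± 0.43 in control cells (SD, n = 3 each; log2 change -0.73, limma adjusted p = 0.275, 0.00196 with the block). The homeobox factor Nkx6-1 had a log2 change of -0.42 (0.248, 0.0136 with the block) and the factor Mafa one of -0.30 (0.248, 0.0431). With the block the 9 falls became 6 after quantile normalization, where Mafa did not pass (0.0612), 4 without pair 2 and 3 without pair 3. Of all 25790 genes, 391 fell after quantile normalization, 81 without pair 2 and 245 without pair 3. Within the first scan Ucn3 differed by -0.4517, Nkx6-1 by -0.269 and Mafa by -0.1888.

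**Figure D4:**
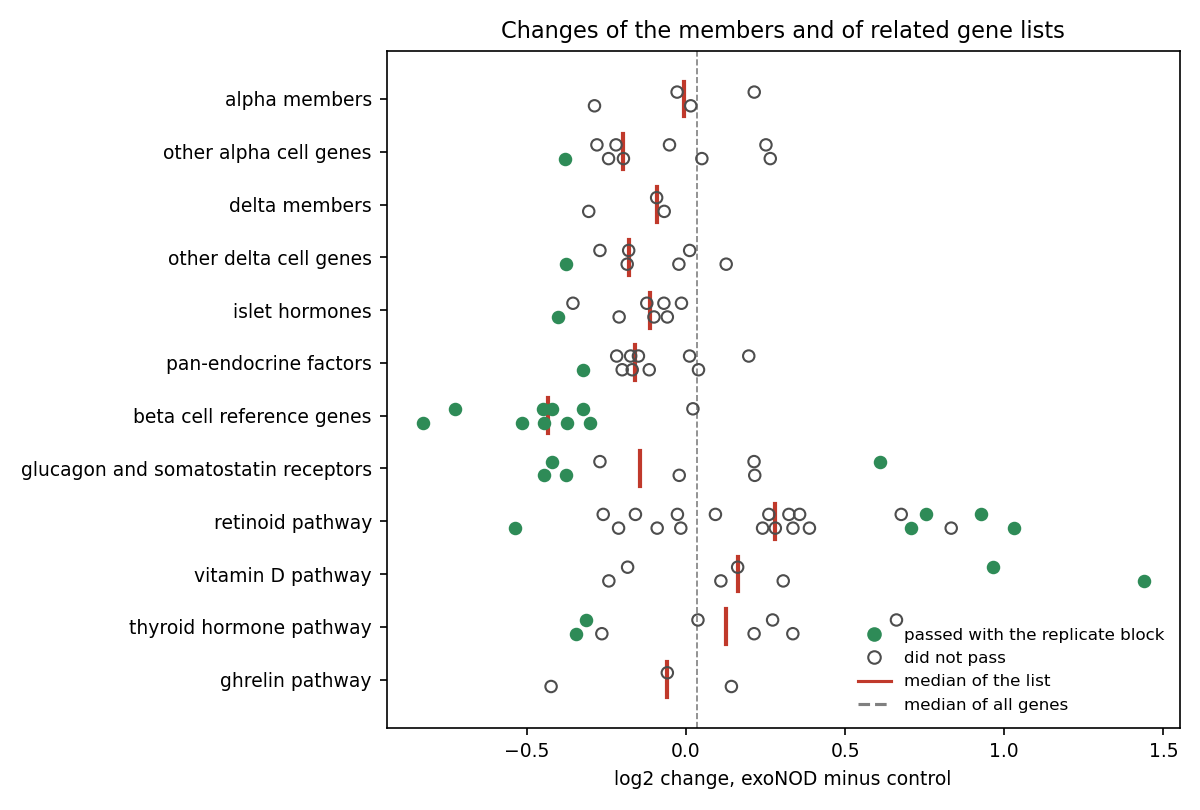
Log2 change, exoNOD minus control, of each tested gene of the members and of related lists (points), with the median of each list (red line) and of all genes (dashed line). Green points passed with the replicate block; 9 of 10 beta cell reference genes are green and lie at or below -0.30, and 0 of 7 members are green.

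Genes that act with the carriers were described next, since Rbp4 and Ttr deliver retinol and thyroxine and Gc delivers vitamin D. Of 21 retinoid pathway genes, 0 passed without the block, and with it 4 rose and 1 fell, against 6.89% and 1.83% of all genes. Dhrs3, which reduces retinal back to retinol, had levels of 0.10 ± 0.081 in exoNOD and 0.64 ± 0.17 in control cells (SD, n = 3 each), with no overlap (log2 change -0.54 ± 0.12 SE, limma adjusted p = 0.107, 0.00517 with the block). Crabp2, which carries retinoic acid to its nuclear receptor, had 0.69 ± 0.39 in exoNOD and -0.016 ± 0.15 in control cells (0.71 ± 0.19, 0.175, 0.0175 with the block). The retinoic acid synthase gene Aldh1a2 had a log2 change of 0.68 (0.232, 0.0540 with the block), of which pair 2 gave 1.41 and the others 0.37 and 0.25. Cyp26a1, which degrades retinoic acid, was well above background on 3 exoNOD arrays and 1 control array and entered the test through the exoNOD group alone, so no size is given (0.252, 0.0767 with the block). Aldh1a2 (0.00113) and Cyp26a1 (0.0389) passed with the block after median scaling, where 2099 of 25790 genes rose. As Cyp26a1 entered through the group where it was high, nothing is read from its p values. Within the first scan Crabp2 differed by 0.3313 and Aldh1a2 by 0.3709. The other rises with the block, outside the rule for named genes and chosen after their values were seen, were Fabp5 (1.03, 0.000640), Aldh1a3 (0.93, 0.00237) and Stra6l (0.75, 0.0301), of which Stra6l was lost with the block after quantile normalization (0.1). Without pair 2 there were 2 rises and 0 falls with the block, where 373 of all 25790 genes rose and 81 fell.

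Of 7 vitamin D pathway genes 2 rose with the block, Lrp2 (megalin) and Cubn (cubilin), the endocytic receptors that take up Gc in the kidney, and 0 passed without it, where 6.89% of all genes rose with the block. Both entered the test through the exoNOD group alone, where they were high. For this reason nothing is read from this count or from the p values of Lrp2 and Cubn. Lrp2 was not well above background on any control array and was on all 3 exoNOD arrays, at least 1.99-fold higher in exoNOD cells (limma adjusted p = 0.0825, 0.0143 with the block); such a bound sets the exoNOD mean against the higher, per control array, of the probe's own level and the lowest level of any probe well above background. Cubn was well above background on 3 exoNOD arrays and 1 control array, so no size is given (0.226, 0.0471 with the block), and its call with the block was lost after quantile normalization (0.137) and in the authors' deposited values (0.139). The vitamin D receptor gene Vdr had a log2 change of -0.24 (0.406; -0.0239 within the first scan) and the activating hydroxylase gene Cyp27b1 one of 0.31 (0.429).

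Among 8 thyroid hormone genes 2 fell with the block, where 1.83% of all genes fell, and 0 passed without it. The median log2 change of the 8 was 0.126, and 5 were higher in exoNOD cells. The receptor gene Thra fell (log2 change -0.35, limma adjusted p = 0.209, 0.0355 with the block). So did the transporter gene Slc16a10 (-0.31, 0.219, 0.0474). Both separated the groups, as did 22.3% of all genes, and the Slc16a10 call was lost with the block after quantile normalization (0.0711). Slco1c1, another thyroid hormone transporter, had a log2 change of 0.21 (0.509).

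For the ghrelin pathway, 3 of 6 genes were above background and 0 of these passed in either fit. Ghrl, which encodes ghrelin, had levels of 0.83 ± 0.14 in exoNOD and 0.89 ± 0.15 in control cells (SD, n = 3 each; log2 change -0.058, limma adjusted p = 0.829). Mrap2, an accessory protein of Ghsr, had a log2 change of -0.42 (0.315, 0.0797 with the block), passed with the block after median scaling (0.00144) and had 0.4949 under normexp. Prcp, a peptidase gene, had a log2 change of 0.14 (-0.1262 within the first scan). The ghrelin acyltransferase gene Mboat4 was not above background. Of 8 receptors for glucagon, incretins and somatostatin, 1 rose and 3 fell with the block, where 6.89% of all genes rose and 1.83% fell. The rise was that of Sstr1, a somatostatin receptor (0.61, 0.227, 0.0355 with the block), lost with the block after quantile normalization (0.107), and the falls included the glucagon receptor gene Gcgr (-0.38, 0.291, 0.0210) and the incretin receptor gene Glp1r, also counted among the beta cell genes (-0.45, 0.321, 0.0308). The incretin receptor gene Gipr, named after its value was seen, was the other fall (-0.42, 0.466, 0.0150). Within the first scan Gipr differed by -0.0665 and Sstr1 by 0.2904. Without pair 2, 0 genes passed with the block in the lists of further alpha and delta cell genes, hormones, shared endocrine genes, vitamin D genes, thyroid hormone genes and these receptors. In that setting 373 of all 25790 genes rose and 81 fell, so a count of 0 in lists this short says little.

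The 2 genes with the most alike level over the 6 arrays were named for each tested member, out of 16295 genes with an established symbol. The arrays fall into 2 groups and, taken by number, 3 pairs, so these correlations describe the arrays alone. Levels of Ttr tracked Tm2d2 (Pearson r = 0.997) and Hoxb3 (0.996), and Rbp4 tracked Negr1 (0.997) and Polr3a (0.995). Those of Gc tracked Scarb1, a lipoprotein receptor (0.999), and Rhbdf1 (0.996). Hhex tracked Cers2 (0.997) and Tdpoz2 (0.995), and Ghsr tracked Ino80c (0.990) and Olfr62 (0.987). For Irx1 the nearest were Lrig1 (0.992) and Enox2 (0.991), and for Irx2 Necap1 (0.992) and Pdk4 (0.991). The log2 changes of these 14 genes lay between -0.58 and 0.15, and 0 of them passed in limma.

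Other cells also use several members, so their markers were read on the same arrays. Ttr, Rbp4 and Gc are liver genes: of 9 hepatocyte markers 7 were above background, Apoa1 and Ahsg were not, and the summed signal of the 7, in units of the 75th percentile of the array, was 23.2 to 28.6 in exoNOD and 22.4 to 30.2 in control cells. Apoa2 made up most of that sum. With the block 1 of the 7, the fibrinogen gene Fgb, rose (log2 change 1.07, 0.411, 0.00457 with the block), where 6.89% of all genes rose. Rbp4 is also an adipocyte gene: Adipoq, Lep and Cfd were not above background, and the other 5 of 8 adipocyte markers summed to 0.567 to 0.802 in exoNOD and 0.540 to 1.01 in control cells. Endothelial cells, which use Hhex, had 8 of 8 markers tested, summing to 10.1 to 10.8 in exoNOD and 9.72 to 11.03 in control cells. With the block 1 endothelial marker rose (Plvap, 0.43) and 3 fell (Cdh5, -0.80, Emcn, -0.98, and Egfl7, -0.68), where 6.89% of all genes rose and 1.83% fell. Plvap had the highest level of the 8 in both groups (2.60 in exoNOD and 2.17 in control cells). It weighed most in the endothelial sum, so that sum does not show the falls. The hepatocyte, adipocyte and endothelial sums overlapped between the groups, and these marker genes were named after their values were seen. Sums without overlap were those of 7 of 8 macrophage markers (18.8 to 20.3 in exoNOD and 24.2 to 27.2 in control cells) and of 7 of 7 duct markers (9.97 to 12.8 in exoNOD and 7.40 to 9.92 in control cells). Acinar, fibroblast and Schwann cell markers, 8 of 8 tested each, overlapped between the groups, at 1.95 to 2.66, 62.2 to 87.3 and 10.6 to 11.9 in exoNOD cells against 1.82 to 2.08, 52.7 to 76.6 and 10.6 to 10.9 in control cells. The part of any of these cells in the members' values was not tested.

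**Figure D5:**
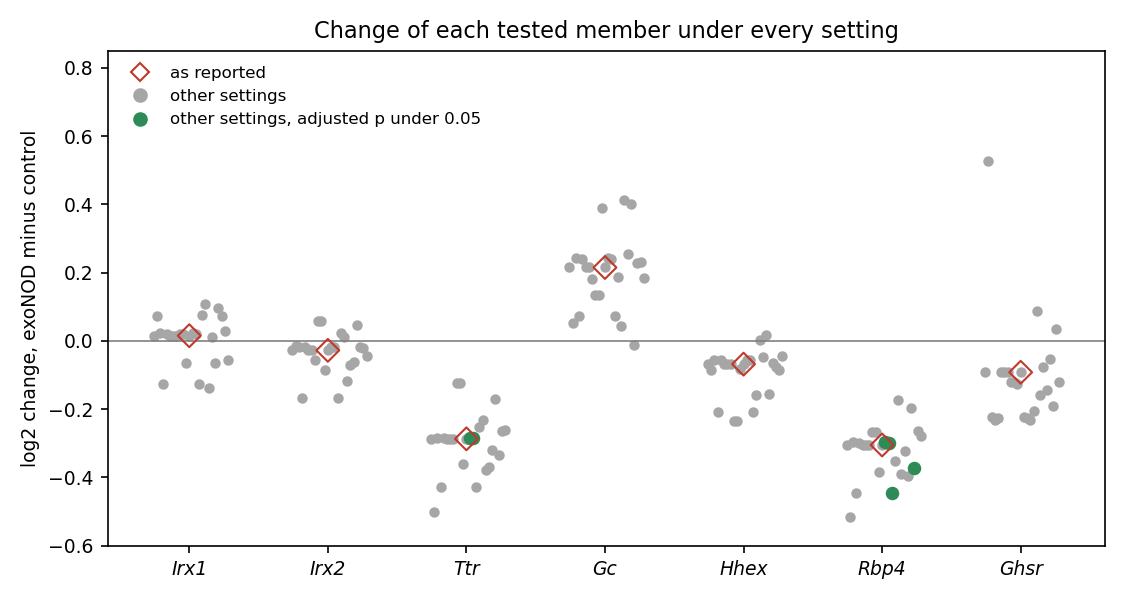
Log2 change, exoNOD minus control, of each tested member as reported (red diamonds) and under 24 other settings (grey points; green where the adjusted p is under 0.05). Ttr and Rbp4 lie below 0 in all 24 settings, with 2 and 4 green points, while the points of Irx1, Irx2, Gc, Hhex and Ghsr lie on both sides of 0.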

How the data were processed

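Each array's deposited file gives intensity values in 1 colour from Agilent Feature Extraction 11.0.1.1 (per the file headers and the submitters' processing notes), with the processed signal background-subtracted and detrended within the array. Per the file headers, deposited flags (other values, 0 or 1) mark spots that were uneven, saturated or well above background. The authors' deposited log2 values have no stated normalization and lie close to a quantile normalization of these signals (medians between 7.921 and 7.923; correlation with the same array's signals at least 0.99984).

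Uneven spots were left out, spots of a probe averaged as log2, and the 75th percentile of each array subtracted. Probes that stood well above background (at least 0.5 of their spots) on every array of a group were tested with limma 3.58.1 in R 4.3.3 (trend, Benjamini-Hochberg adjustment over 25790 genes, threshold 0.05). Of 39429 probes, 27234 had a RefSeq symbol (GRCm38.p6). The step was checked on simulated data.

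Equal replicate numbers were taken as pairs, since deviations from group means correlated across genes at 0.366, 0.281 and 0.480, each over 0.1; the labels do not state the pairing. The planned test has no block, and blocked values are given beside it. The members and lists were chosen with earlier results of these data known. Named were all members, the 4 genes of lowest unadjusted p in each list (marker lists as counts), Gcg, Sst, Ppy and the 2 most alike genes; some genes that this rule names are not reported here. The files lack a mean spot signal, so normexp (offset 50) used the median signal.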

Additional observations from a re-analysis of the deposited data

How the results depend on the processing

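The count of 0 members past the threshold was also 0 in 20 of 24 alternatives. With the replicate block it was 2 on quantile-normalized signals and 2 on the authors' values (Ttr and Rbp4). After median scaling with the block it was 1 (Rbp4), and between 0 and 1 without a pair. Without 1 array it was 0 to 0, and the block alone left it at 0. Several of these alternatives could give no other count, since 0 of all genes passed in them. This held with no filter on dim probes and with no trend in limma. It also held when exoNOD replicate 2 or the control of number 1 or 2 was dropped. Dropping exoNOD replicate 3 left 2 of all genes passing. The slide block and the first scan rest on 1 exoNOD array. In all these settings a count of 0 says nothing about the members. The median change of -0.0682 was -0.209 after median scaling, with or without the block, where the median of all genes moved to -0.106 (0.351 under normexp). It was between -0.16 and 0.0123 without 1 array and between -0.0764 and -0.0207 with the block without a pair. The sign of Irx1 turned after median scaling (-0.126, also with the block) and with array weights (-0.0654), that of Irx2 with slide, inferred from scan time, as a block and within the first scan (0.0572 in both), and that of Ghsr under normexp (0.528). Without 1 array Irx1 lay between -0.139 and 0.108, Irx2 between -0.119 and 0.0478, Ttr between -0.378 and -0.171, Rbp4 between -0.395 and -0.174, Gc between -0.0135 and 0.413, Hhex between -0.16 and 0.0159 and Ghsr between -0.205 and 0.0873. With the block without a pair Irx1 lay between -0.0571 and 0.0726 and Ghsr between -0.191 and 0.0345. Why these moved was not tested. The second scan holds no control, so the slide block and the first scan both rest on exoNOD replicate 1 alone against the controls. Pou3f4 has no signal above background.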
